A study of Mus musculus with 25 samples.

Results

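The genes described here are 8 genes of Schwann cells and myelin: Mbp, Pmp22, Prx, Mag, Gfap, S100b, Cnp and Egr2. They were chosen by symbol from a table of 55450 genes measured by bulk RNA sequencing, each symbol matched 1 row, and all 8 were among the 18031 genes with enough counts to test. They serve to describe how far nerve or Schwann-like transcripts accompany the Sox10 mRNA that these melanomas contain. All 25 tumours grew in C57BL/6 mice from 1 implanted mouse melanoma cell line, named B2905 or M4, and every mouse received an antibody at 10 mg/kg. Control mice (n = 5) received isotype control IgG2b. The other 20 received anti-CTLA-4, which blocks an inhibitory receptor of T cells, and their tumours were sorted by later size into responders (shrinking, n = 8), stable tumours (n = 6) and non-responders (growing, n = 6). The groups under anti-CTLA-4 are therefore outcomes of 1 treatment, not separate treatments. The sources used here do not state sex or age of the mice.

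Schwann cells wrap peripheral axons. The transcription factors SOX10 and EGR2 together switch on their myelin genes, and immature, non-myelinating or repair Schwann cells lack most myelin proteins but keep SOX10, S100B and the receptors ERBB3 and NGFR. Melanocytes arise from the same neural crest lineage, partly from Schwann cell precursors, and melanoma cells commonly express SOX10 and S100B too. Several of the 8 genes are also known outside nerve. Egr2 is induced in activated T cells and macrophages, the Mbp locus encodes golli proteins made in immune cells as well as myelin basic protein, and Pmp22 is expressed in fibroblasts and epithelia. In bulk tumour RNA, fewer cells of a type and less RNA per cell cannot be told apart.

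The libraries differed between groups in ways that touch the results. Library numbers in the labels ran in blocks by group, 1 to 5 for controls and 6 to 11 for non-responders. Responders had 12 to 19 and stable tumours 20 to 25. If these numbers follow an order of processing, that order and group cannot be told apart. Totals ran from 8764580 to 34311295 counts per library. The share of counts in protein-coding genes was 87.4% ± 0.842 (SD, n = 5) in controls, 86.1% ± 1.97 (n = 6) in non-responders, 86.2% ± 1.86 (n = 6) in stable tumours and 64.0% ± 18.8 (n = 8) in responders, with responder 1 at 23.8% and responder 4 at 54.2%. This share was lower in responders than in each other group (two-sided exact permutation tests, adjusted p = 0.0187 for each). Mitochondrial rRNA made up 0.546% to 1.06% of counts in controls and non-responders, 1.31% to 7.28% in stable tumours and 1.15% to 14.3% in responders, so every stable tumour and responder lay above every tumour of the other 2 groups. Its part in the results was not tested. The TMM factor was 0.339 in responder 1 and 0.818 to 1.19 in the other tumours. Levels below are CPM, which are counts set to a common library total, after TMM scaling, and comparisons between genes use the deposited RPKM values, which are per length. As for the tumour label, each of 17 melanocyte genes was detected in the series. Their summed level ran from 14450 to 21520 CPM in controls and from 1024 to 16410 in non-responders. It ran from 622 to 915 CPM in the stable group and from 502 to 962 in responders. In these last 2 groups Gpnmb alone averaged 432 and 302 CPM, against 4.58 and 7.745 CPM for Tyr. Among responders, Tyr, Mlana, Slc45a2 and Gpr143 each reached 0 CPM.

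Per length, the 8 genes differed widely in level. Mean RPKM over the 25 tumours was 56.4 for Pmp22 and 41.9 for S100b, against 71.5 for Sox10. Cnp followed at 14.3, Egr2 at 7.14 and Mbp at 6.51. The remaining genes were low, with Prx at 1.07, Mag at 0.932 and Gfap at 0.560. The genes did not behave as 1 group across tumours. S100b, Cnp and Pmp22 had their highest group means in controls and their lowest in responders. Mag and Mbp had their lowest group means in controls and their highest in stable tumours, as did Egr2. Prx and Gfap varied little between groups.

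The pairs of genes that ranked the tumours most alike were S100b with Cnp and Mag with Egr2, and the pairs ran in opposite directions, so the 250 bases before the RefSeq transcription start (build GRCm38.p6) of these 4 genes are shown, 5′ to 3′ on the gene's strand. Capitals mark the core ACAAAG bound by SOX proteins, on either strand. For genes with several starts the first window of the table is shown. Windows lie at chr10:76253586-76253835 (plus strand) for S100b, chr11:100574689-100574938 (plus) for Cnp, chr7:30914864-30915113 (minus) for Mag and chr10:67535249-67535498 (plus) for Egr2. The genes themselves, all protein-coding, span chr10:76253853-76261159 (S100b), chr11:100574904-100591729 (Cnp), chr7:30899176-30914873 (Mag) and chr10:67535475-67542188 (Egr2) in the GENCODE M21 annotation, and Pmp22 chr11:63128982-63159547, Prx chr7:27499324-27520214 and Gfap chr11:102887336-102900912.
S100b: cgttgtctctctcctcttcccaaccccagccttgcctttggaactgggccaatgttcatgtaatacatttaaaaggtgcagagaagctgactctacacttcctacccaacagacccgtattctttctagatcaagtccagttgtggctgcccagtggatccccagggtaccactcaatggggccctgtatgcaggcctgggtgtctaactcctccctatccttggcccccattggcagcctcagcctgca
Cnp: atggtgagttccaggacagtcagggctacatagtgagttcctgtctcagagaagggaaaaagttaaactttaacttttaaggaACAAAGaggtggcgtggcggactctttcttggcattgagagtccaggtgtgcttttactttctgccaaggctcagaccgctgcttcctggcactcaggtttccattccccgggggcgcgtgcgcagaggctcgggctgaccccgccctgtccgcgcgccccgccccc
Mag: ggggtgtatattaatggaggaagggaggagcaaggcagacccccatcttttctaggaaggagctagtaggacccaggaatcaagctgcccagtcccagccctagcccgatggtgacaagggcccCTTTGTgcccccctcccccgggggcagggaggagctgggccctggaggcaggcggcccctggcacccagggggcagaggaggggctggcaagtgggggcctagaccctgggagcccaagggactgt
Egr2: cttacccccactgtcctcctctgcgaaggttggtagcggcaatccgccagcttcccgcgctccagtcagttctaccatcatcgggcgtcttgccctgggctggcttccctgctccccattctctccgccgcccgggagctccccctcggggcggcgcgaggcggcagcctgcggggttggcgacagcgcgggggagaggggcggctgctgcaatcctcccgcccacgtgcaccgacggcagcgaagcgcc
In windows reaching from 250 bases before to 50 after the start, the SOX core ACAAAG stood once in the window of Cnp, at -167 on the plus strand of the gene, and once in that of Mag, at -126 on the opposite strand. Of all 32851 windows in the table, 18.7% held it on 1 strand or the other. The site GCGTGGGNG, bound by EGR proteins, stood at 20 bases past the start in Cnp and is held by 1.90% of windows, and the core CATGTG of the M-box bound by MITF, held by 14.2%, was in none of these 4 windows, though it stood in 1 further window of Mag and 3 further windows of Egr2. No matches overlapped one another. S100b held none of the 3 in its window, nor did the only window of Prx, the only window of Gfap and the 4 windows of Pmp22. These are letter matches only.

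The groups were compared with edgeR's quasi-likelihood test, and a gene was called at an adjusted p under 0.05. Of the 8 genes, 3 were lower and 0 higher in responders than in non-responders, where 48.9% of all genes tested were called in either direction, 23.8% lower and 25.2% higher. For stable tumours against non-responders, 1 was higher and 1 lower (14.9% of all genes called, 7.08% higher and 7.86% lower). For responders against stable tumours, 2 were lower and 0 higher (38.2% called, 17.8% lower and 20.5% higher). Against controls, non-responders had 2 higher and 1 lower (13.9% called, 10.6% higher and 3.29% lower). Stable tumours had 3 higher and 2 lower than controls (41.8% called, 22.2% higher and 19.6% lower), and responders 4 higher and 3 lower (65.0% called, 36.1% higher and 28.9% lower). Beside such backgrounds, these counts say nothing particular about the 8 genes as a set. The median log2 fold change over all genes was within 0.06 of 0 except in responders against controls, where it was 0.16, or 0.04 with protein-coding genes only. Values without overlap were rarer, at 5.01% of genes in responders against non-responders, where S100b was the member, and 5.01% in stable tumours against non-responders, where Cnp was. Against controls they made up 4.08% in non-responders (S100b and Egr2), 35.5% in stable tumours (S100b, Cnp, Mbp, Mag and Egr2) and 30.0% in responders (S100b, Cnp, Mag, Egr2 and Prx). Between responders and stable tumours they made up 0.715%, with no member.

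**Figure D1:**
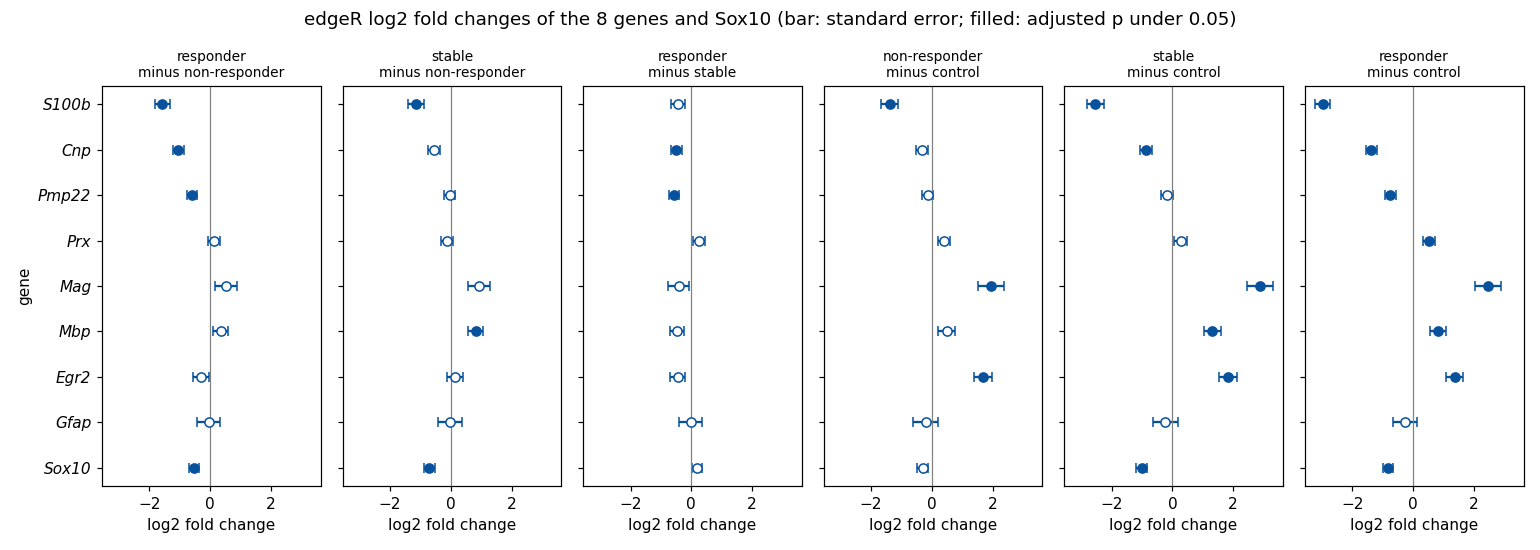
edgeR log2 fold changes (x axis) with their standard errors for the 8 genes and Sox10 (rows) in the 6 comparisons (panels), where filled points have an adjusted p under 0.05. S100b, Cnp and Pmp22 lie left of 0 in all 6 panels, while Mag and Egr2 lie furthest right in the 3 panels against controls.

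S100b, which encodes a calcium-binding protein of Schwann cells and melanocytic cells, showed the largest difference of the 8 genes between responders and non-responders. Control tumours held 115, 147, 177, 178 and 228 CPM. Non-responders held 36.5, 46.4, 51.1, 66.6, 79.4 and 105 CPM. Stable tumours held 19.1, 23.9, 26.6, 29.5, 36.5 and 38.5 CPM, and responders ran from 9.90 through a median of 21.3 to 35.9 CPM. Every responder lay below every non-responder, and every tumour under anti-CTLA-4 lay below every control. Only stable and responder values overlapped broadly, while stable tumours reached the lowest non-responder. S100b was 2.99-fold lower in responders than in non-responders (log2 fold change -1.58, SE 0.24, adjusted p = 6.97e-05, edgeR) and 2.21-fold lower in stable tumours than in non-responders (-1.15, SE 0.26, adjusted p = 0.00667). Against controls it was 2.63-fold lower in non-responders, 5.82-fold lower in stable tumours and 7.87-fold lower in responders, with adjusted p = 0.00132, 8.21e-07 and 4.99e-08. The difference between responders and stable tumours, -0.44 with an SE of 0.24, did not pass (adjusted p = 0.157), though it did without responder 5 (-0.59, adjusted p = 0.0433).

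Cnp, which encodes a phosphodiesterase of non-compact myelin, followed the same order with smaller steps. Controls held 55.8, 66.8, 67.3, 69.7 and 84.4 CPM and non-responders 45.0, 47.3, 56.7, 58.5, 59.4 and 62.6 CPM. Stable tumours held 30.0, 33.7, 35.5, 37.3, 44.3 and 44.5 CPM, all below every non-responder. Responders ran from 17.4 through a median of 23.5 to 47.7 CPM, and responder 5 alone reached the non-responder range. Cnp was 2.07-fold lower in responders than in non-responders (log2 fold change -1.05, SE 0.18, adjusted p = 0.000144, edgeR). It was 1.83-fold lower in stable tumours and 2.59-fold lower in responders than in controls (adjusted p = 0.000957 and 1.67e-06). Stable tumours against non-responders gave -0.55 (SE 0.19) at adjusted p = 0.0526, although their values did not overlap, and it passed without any one of 7 tumours (responders 1, 2 and 5, stable tumours 1 and 6, non-responders 5 and 6), at -0.60 to -0.55. Responders were 1.41-fold lower than stable tumours (adjusted p = 0.031), a call that ended without any one of responders 1, 2, 4 and 8 or stable tumours 1 and 6, with adjusted p from 0.0559 to 0.0662.

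Pmp22 encodes a membrane protein of compact myelin. Its levels were 124, 133, 136, 145 and 146 CPM in controls, 103, 107, 118, 130.4, 131 and 154 CPM in non-responders, and 106, 107, 109.7, 115, 129 and 161 CPM in stable tumours. Responders ran from 54.9 through a median of 71.3 to 134 CPM. Of the 8 responders, 6 lay below every tumour of the other groups, and responders 3 and 5 did not. Pmp22 was lower in responders than in non-responders (log2 fold change -0.61, SE 0.17, adjusted p = 0.00576), stable tumours (-0.58, SE 0.17, adjusted p = 0.0125) and controls (-0.75, SE 0.18, adjusted p = 0.000817). In a fit that also held each library's protein-coding share as a term, these differences were -0.22, -0.19 and -0.34, and none was called (adjusted p = 0.392, 0.632 and 0.127). In that share 7 of the 8 responders, at 74.3% or less, lay below every other tumour, at 82.9% or more, so share and outcome can hardly be told apart. With that term the calls over all genes went from 8823 to 1810 in responders against non-responders and from 6895 to 0 against stable tumours, so the lost calls are not particular to Pmp22. The 2 high responders differed in this share, with responder 5 (119 CPM of Pmp22) at 87.0% and responder 3 (134 CPM) at 74.3%.

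**Figure D2:**
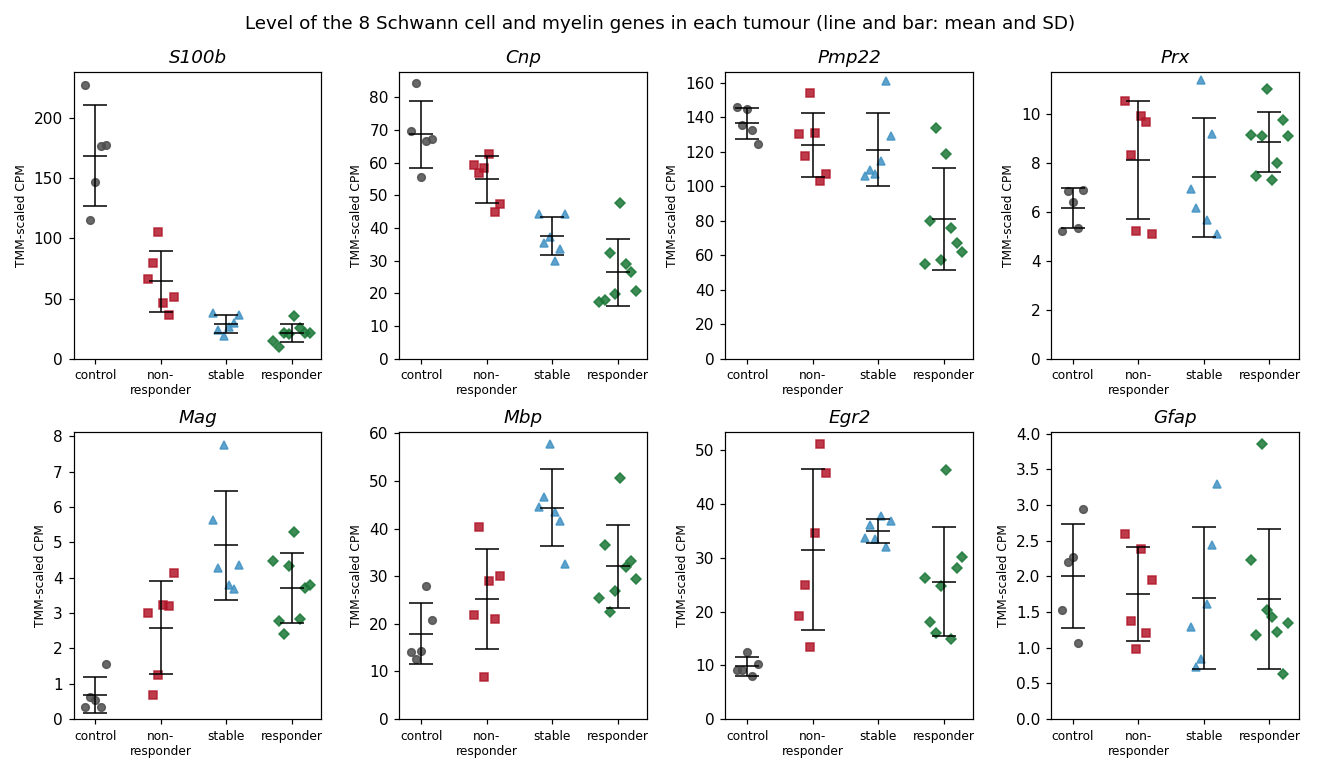
TMM-scaled CPM of the 8 genes (y axes, linear from 0) in each tumour, by group, with 1 point per tumour and the mean and SD as bars. S100b and Cnp step down from controls to responders, Mag, Mbp and Egr2 have their lowest means in controls, and Prx and Gfap stay below 12 CPM in every tumour.

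Mag encodes an adhesion protein of the Siglec family on the myelin membrane that faces the axon. It was scarce, with 10 to 30 counts in each control library. Controls held 0.329, 0.333, 0.547, 0.626 and 1.55 CPM, and non-responders 0.691, 1.25, 3.00, 3.20, 3.23 and 4.12 CPM. Stable tumours ran from 3.69 to 7.74 CPM and responders from 2.41 through a median of 3.75 to 5.30 CPM. Every stable tumour and every responder lay above every control, while non-responders 2 and 3 lay within the control range. Mag was 3.87-fold higher in non-responders, 7.35-fold higher in stable tumours and 5.52-fold higher in responders than in controls (log2 fold changes 1.95, 2.88 and 2.47, SE 0.42, 0.43 and 0.42, adjusted p = 0.00288, 1.30e-05 and 2.44e-05, edgeR). No call was made between the 3 outcomes under anti-CTLA-4, but stable tumours passed against non-responders without non-responder 6 (1.11, adjusted p = 0.0457).

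Mbp, which encodes the basic protein that binds the inner faces of the myelin membrane, has 16 annotated transcripts on chromosome 18, and the gene-level counts do not separate its myelin from its golli forms. Controls held 12.7, 14.1, 14.3, 20.7 and 28.0 CPM and non-responders 8.93, 21.0, 21.9, 29.0, 30.1 and 40.3 CPM. Stable tumours held 32.6, 41.5, 43.5, 44.5, 46.7 and 57.8 CPM, all above every control, and responders ran from 22.5 through a median of 30.7 to 50.6 CPM. Mbp was 2.47-fold higher in stable tumours (log2 fold change 1.31, SE 0.28, adjusted p = 0.000522) and 1.79-fold higher in responders (0.84, SE 0.26, adjusted p = 0.00751) than in controls. Stable tumours also exceeded non-responders 1.76-fold (0.82, SE 0.26, adjusted p = 0.0355). That last call ended without any one of stable tumours 2, 3 and 4 or non-responders 1, 3 and 5, with adjusted p from 0.0541 to 0.091. Further calls appeared without 1 tumour, against controls for non-responders without non-responder 3 (0.66, adjusted p = 0.0391) and against stable tumours for responders without responder 5 (-0.59, adjusted p = 0.042).

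Egr2 encodes the zinc finger factor of the myelin programme. It held 8.05, 9.13, 9.16, 10.2 and 12.6 CPM in controls, and every anti-CTLA-4 tumour lay above these. Non-responders spread from 13.4 to 51.3 CPM, stable tumours only from 32.0 to 37.8 CPM, and responders from 14.9 through a median of 25.5 to 46.3 CPM. Against controls Egr2 was 3.22-fold higher in non-responders, 3.57-fold higher in stable tumours and 2.61-fold higher in responders (adjusted p = 0.000659, 2.58e-05 and 0.000175, edgeR). Differences among the 3 outcomes did not pass, except responders against stable tumours without responder 5 (-0.63, adjusted p = 0.0289).

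Prx encodes periaxin, a scaffold protein on the outer side of Schwann cell myelin. It ran from 5.10 to 11.4 CPM over all tumours. Responders, at 7.32 to 11.0 CPM, lay above all controls, at 5.23 to 6.93 CPM, and the difference was 0.52 on the log2 scale (SE 0.20, adjusted p = 0.0253). This call ended without control 1 (adjusted p = 0.0704) or control 4 (adjusted p = 0.0675). Gfap encodes an intermediate filament of astrocytes and non-myelinating Schwann cells. It held 0.632 to 3.86 CPM with the groups mixed, and its log2 fold changes ran from -0.25 to -0.01 in the 6 comparisons, with no call.

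Sox10, which encodes the factor shared by Schwann cells and melanocytes, stayed well detected in every tumour. Controls held 321 to 391 CPM, non-responders 242 to 337, stable tumours 121 to 252 and responders 128 to 314, so the lowest tumour still held 121 CPM. It was 1.43-fold lower in responders (log2 fold change -0.52, SE 0.16, adjusted p = 0.0129) and 1.63-fold lower in stable tumours (-0.71, SE 0.18, adjusted p = 0.011) than in non-responders. Both groups were also lower than controls (-0.82 and -1.01, adjusted p = 0.00025 and 0.000113). When the protein-coding share entered the fit, the log2 fold change of Sox10 in responders against non-responders was -0.53, and it was no longer called (adjusted p = 0.112), as for most genes called in this comparison.

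Over the 25 tumours, S100b rose with Sox10 (Spearman rho 0.84, Pearson r 0.82, permutation tests, adjusted p = 0.000591 and 0.000295), and so did Cnp (rho 0.77, r 0.70, adjusted p = 0.000591 and 0.00213). Pmp22 gave rho 0.66 and r 0.49, with adjusted p = 0.00752 and 0.0936 in permutation tests. Mbp and Mag went the other way, at rho -0.77 and -0.76 and r -0.75 for both (permutation tests, adjusted p of at most 0.00141), and Egr2 at rho -0.61 and r -0.61 (adjusted p = 0.0215 and 0.0142). Without the 2 tumours farthest from the median of Sox10, r was 0.79 for S100b, 0.70 for Cnp, 0.50 for Pmp22, -0.73 for Mbp, -0.77 for Mag and -0.71 for Egr2. Prx (rho -0.34) and Gfap (rho 0.37) did not pass. The 25 points share their library, depth and scaling, and groups differ in both genes, so within-group values stand beside them, except for the 5 controls, which are too few for a correlation. For S100b, rho with Sox10 was 0.77 in the 6 non-responders, 0.94 in the 6 stable tumours and 0.19 in the 8 responders. For Mag it was -0.94, -0.14 and -0.31 in the same order, and for Mbp -0.37, -0.83 and -0.76. Cnp gave 0.14, 0.43 and 0.21, Pmp22 0.49, 0.31 and -0.02, and Egr2 -0.77, 0.20 and -0.62. No within-group relation with Sox10 passed after adjustment over the 384 relations computed (exact permutation tests).

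**Figure D3:**
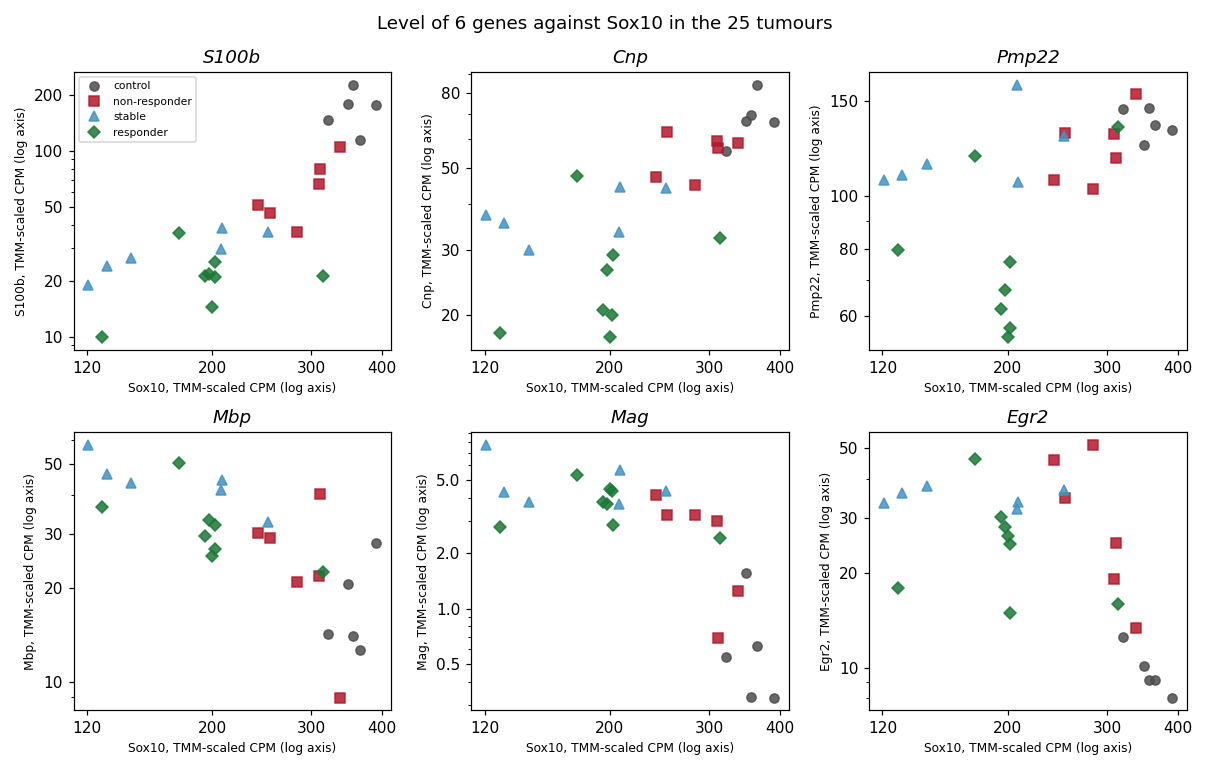
Level of 6 genes (y axes) against Sox10 (x axes) in the 25 tumours, in TMM-scaled CPM on log axes, coloured by group. S100b, Cnp and Pmp22 are high where Sox10 is high, and Mbp, Mag and Egr2 are low there; responders form a narrow column near 200 CPM of Sox10 except at 3 tumours.

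Taken per unit of Sox10, in a comparison added after the data were seen, S100b fell further than Sox10 in responders. The log2 ratio of S100b to Sox10 was -1.11 ± 0.37 (SD, n = 5) in controls, -2.25 ± 0.43 (n = 6) in non-responders, -2.59 ± 0.18 (n = 6) in stable tumours and -3.28 ± 0.52 (n = 8) in responders. Responders minus non-responders gave -1.03 (two-sided exact permutation test, adjusted p = 0.0139 over 48 tests), and responders minus stable tumours -0.69 (exact permutation test, adjusted p = 0.0271). Stable tumours differed from non-responders by -0.34, which did not pass (exact permutation test, adjusted p = 0.147). Cnp kept nearly the same ratio in controls, non-responders and stable tumours, at -2.38, -2.39 and -2.19, and was lower in responders, at -2.97, than in stable tumours (difference -0.77, exact permutation test, adjusted p = 0.0271). For Cnp, responders minus non-responders gave -0.57 and responders minus controls -0.59, and neither passed (exact permutation tests, adjusted p = 0.0531 and 0.0584). Pmp22 per Sox10 was higher in stable tumours than in controls and non-responders, by 0.87 and 0.72 (exact permutation tests, adjusted p = 0.0173 for both), and responders minus stable tumours gave -0.84 (exact permutation test, adjusted p = 0.021). Mag per Sox10 was higher than in controls by 2.08 for non-responders, 3.89 for the stable group and 3.30 for responders (exact permutation tests, adjusted p = 0.0271, 0.0104 and 0.00746). It was also higher than in non-responders, by 1.82 in stable tumours and 1.22 in responders (exact permutation tests, adjusted p = 0.0104 and 0.0271). Of the 48 tests 24 passed, among them tests of Mbp, Prx and Egr2.

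**Figure D4:**
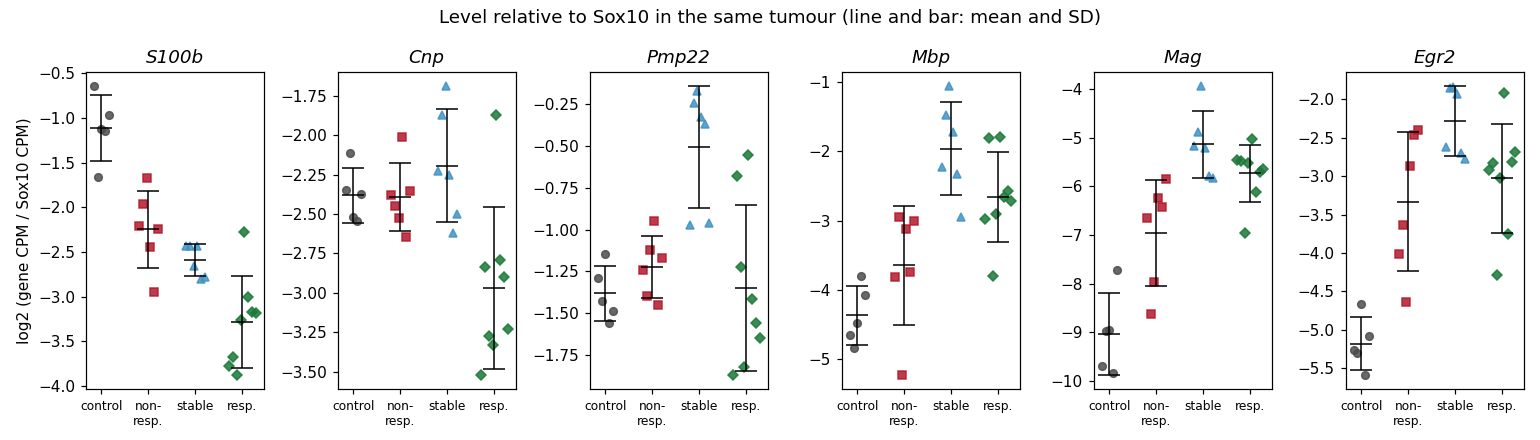
Log2 ratio of 6 genes to Sox10 in the same tumour (y axes), by group, with 1 point per tumour and the mean and SD as bars. S100b falls from a mean of -1.11 in controls to -3.28 in responders, Cnp has nearly level means except in responders, and Mag, Mbp and Egr2 have their lowest means in controls.

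Pairs among the 8 genes followed the same division. S100b and Cnp ranked the 25 tumours nearly alike (Spearman rho 0.92), with Pmp22 at 0.69 and 0.71 to them. Mag ranked them like Egr2 (0.76) and Mbp (0.65), and S100b with Mag gave -0.64. Of 13556 genes compared, those near to S100b included Gulp1 (0.98) and Snx1 (0.97), and those nearest to Cnp were Rtl8a, Mtch1 and Hist1h2bc (0.95 each). Pmp22 was nearest to Tbc1d8b (0.93), Ugdh (0.92) and Fermt2 (0.91). Nearest to Mag were Mab21l3 (0.94), Ciita (0.93), which encodes the activator of MHC class II genes, and Relb (0.93), an NF-kappaB subunit. Egr2 was nearest to Plxdc2 (0.90), Pld4 (0.89) and Ptpn18 (0.89), and Mbp to Iqgap2 (0.91), Pgap1 (0.90) and Ulbp1 (0.89). The nearest genes to Prx were Col5a1 (0.78), a fibrillar collagen chain, Itsn1 (0.76) and Arhgap23 (0.76), and Gfap had none above Vps45 at 0.65. No gene of the fixed nerve lists was among these 24 neighbours.

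The other myelin genes included 20 fixed by name, all tested, with a summed level of 860.4 ± 65.3 CPM (SD, n = 5) in controls, 738 ± 69.7 (n = 6) in non-responders, 579.7 ± 67.8 (n = 6) in stable tumours and 522 ± 102 (n = 8) in responders. In responders against non-responders 9 were lower and 1 higher, with a median log2 fold change of -0.50 against 0.05 for all genes. Pmp2, a fatty acid binding protein of myelin, was lower at -1.73 (SE 0.51, adjusted p = 0.00789), and Cmtm5 at -1.19 (SE 0.29, adjusted p = 0.0024). Nfasc, a node and paranode adhesion protein, was higher at 0.94 (SE 0.39, adjusted p = 0.0496). In stable tumours against non-responders 4 were lower, among them Cmtm5, Dhh and Sh3tc2, and Nfasc was higher (median -0.47). Against controls 2 were lower and 1 higher in non-responders, 8 and 3 in stable tumours, and 10 and 2 in responders. Over all genes 13.9%, 41.8% and 65.0% were called in these 3 comparisons, and 48.9% in responders against non-responders. With both directions together, the counts for responders lie near that background, but most of these calls were lower. Of all genes, 23.8% were lower in responders than in non-responders and 28.9% in responders than in controls. In stable tumours against non-responders, 7.86% of all genes were lower and 7.08% higher. Of the 20, 7 averaged under 1 CPM, among them Gjb1, Cldn19 and Ncmap, which encode junction and membrane proteins of myelinating Schwann cells.

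Of 22 Schwann lineage and repair genes, 20 were tested. In responders 9 were lower and 0 higher than in non-responders, and in stable tumours 6 were lower and 0 higher, with medians of -0.41 and -0.30. Fabp7 (-1.80 and -1.25) and Plekhb1 (-1.75 and -1.65) were lower in both. Scn7a was lower in responders (-1.04, adjusted p = 0.00838) and Pou3f1, a factor of promyelinating Schwann cells, in stable tumours (-1.75, adjusted p = 0.0157). Against controls the counts were 1 higher and 0 lower in non-responders, 1 and 9 in stable tumours, and 3 and 9 in responders. Of all genes, 10.6% were higher and 3.29% lower in non-responders, 22.2% and 19.6% in stable tumours, and 36.1% and 28.9% in responders. In both directions together 41.8% and 65.0% were called in the last 2 comparisons. The count for responders is no higher than that background, but most of these calls were lower. Lower calls over all genes made up 23.8% in responders and 7.86% in stable tumours against non-responders. Erbb3, the neuregulin receptor, held 181 to 701 CPM and Cdh19 86.9 to 334 CPM, and both were measured in all 25 tumours. Both were lower in responders than in non-responders (log2 fold changes -0.79 and -0.65, adjusted p = 0.00566 and 0.00452, edgeR). Both were also lower than in controls in stable tumours (-0.75 and -0.57) and in responders (-0.76 and -0.94). In non-responders neither differed from controls by a call. Ngfr, the low-affinity neurotrophin receptor, exceeded its control level in non-responders, stable tumours and responders (log2 fold changes 1.12, 1.29 and 1.27, adjusted p = 0.0407, 0.00601 and 0.00301, edgeR).

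Most axon transcripts were scarce. Of 18 axon and neuron genes, 15 averaged under 1 CPM and 6 could be tested. Over all 25 libraries together, the neurofilament genes Nefl and Nefm had 41 and 17 counts, Snap25 10 and the sensory sodium channel gene Scn9a 1. The summed level of 226 to 508 CPM came almost wholly from Map1b, at 197 to 443 CPM, and Tubb3, at 15.9 to 135 CPM. Tubb3 and Uchl1 were lower in responders than in non-responders (-1.02 and -0.89, adjusted p = 0.00274 and 0.0365). Against controls, 1 of the 6 tested was higher and 3 lower in stable tumours, 0 and 3 in responders and 0 and 1 in non-responders. Of all genes, 22.2% were higher and 19.6% lower in stable tumours, 36.1% and 28.9% in responders and 10.6% and 3.29% in non-responders. Low genes went both ways, as 2 named after their values were seen show. Nefh, a neurofilament gene, was higher in stable tumours than in controls (2.44, SE 0.66, adjusted p = 0.00454) and averaged 0.521 CPM. Scn10a held 0.479 to 3.76 CPM in controls and at most 0.258 CPM in any anti-CTLA-4 tumour. As background, the cell bodies of peripheral neurons lie in ganglia, so nerve fibres within a tumour hold little neuronal mRNA. Of 11 oligodendrocyte and astrocyte genes 6 were tested, and 4 were higher and 1 lower than in controls both in stable tumours and in responders. The shares over all genes in these comparisons are those given above beside the axon genes. Slc1a2 (4.79 and 4.57), Slc1a3 (1.78 and 1.58) and Aldh1l1 (1.59 and 0.82) were higher in both, as Mag was, and Slc1a2 and Slc1a3 encode glutamate transporters of astrocytes. The oligodendrocyte genes Mog, Mobp and Opalin had 2, 1 and 3 counts in all, and Olig2 had 0, which allows up to 3 counts over the 25 libraries.

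**Figure D5:**
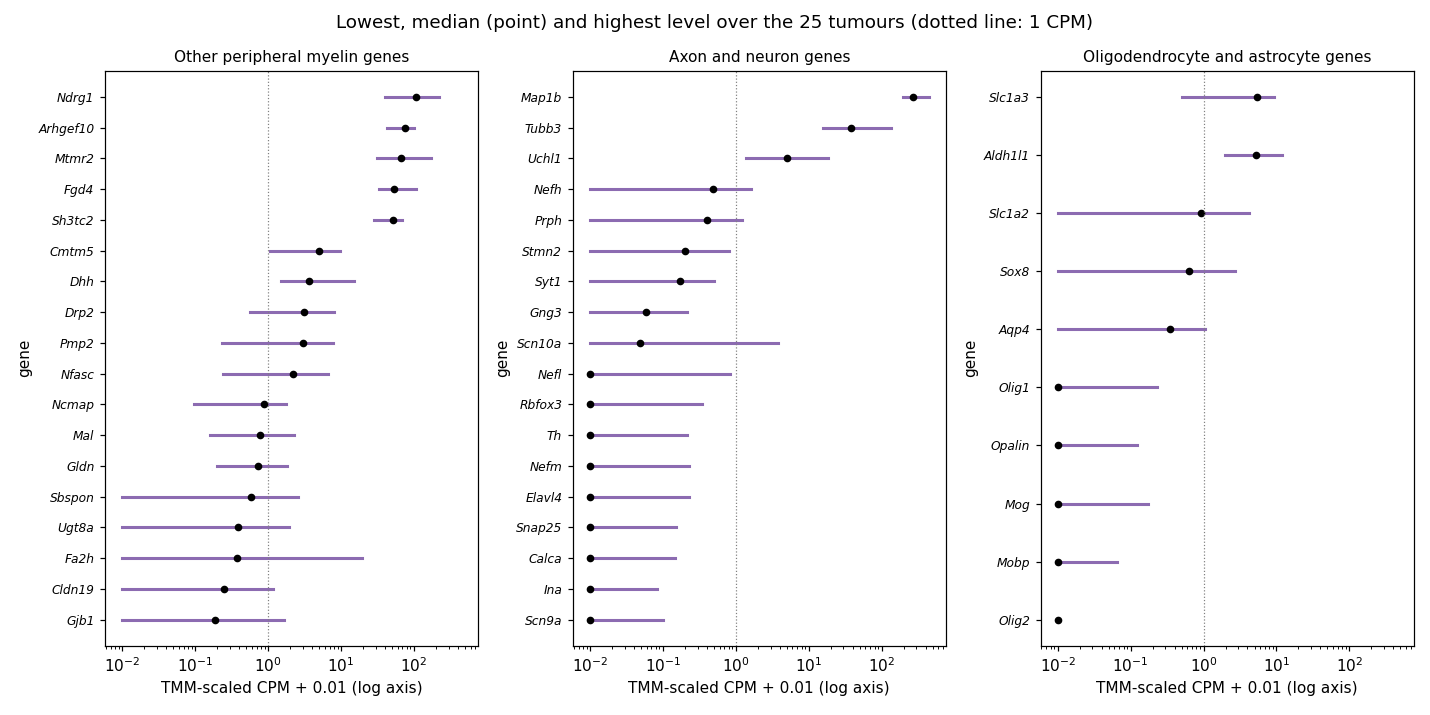
Lowest, median and highest TMM-scaled CPM over the 25 tumours (x axes, CPM plus 0.01 on a log axis) for most of the other myelin genes, axon and neuron genes and glial genes of the brain (rows). Most axon genes have medians under 1 CPM, whereas Ndrg1 and Arhgef10 stay above 40 CPM in every tumour.

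Markers of other cells moved between the same groups. Summed T cell genes (12) ran from 14.1 to 40.6 CPM in controls, from 36.6 to 294 in non-responders, from 222 to 339 in the stable group and from 161 to 362 in responders, and all 12 were higher than in controls in each anti-CTLA-4 group. Summed macrophage genes (12) ran from 847 to 1583 CPM in controls, from 1342 to 9154 in non-responders, from 6896 to 10460 in the stable group and from 2892 to 11410 in responders. Summed fibroblast genes (12) ran from 3736 to 7004 CPM in controls, from 6765 to 15080 in non-responders, from 8193 to 17760 in the stable group and from 7748 to 16620 in responders, so every stable tumour and responder lay above every control. Of these 12 genes, 10 were higher than in controls in stable tumours and 5 in responders, with 0 lower, where 22.2% and 36.1% of all genes were higher. Mag, Mbp and Egr2 had their lowest group means in controls, the group with the lowest range of all 3 sums. Within groups, Mag gave rho 0.94 with the T cell sum among non-responders, 0.83 among the stable group and 0.095 among responders, and none passed after adjustment (exact permutation tests, adjusted p = 0.107, 0.273 and 0.957). Their part in the Mag, Mbp, Egr2 and Prx results was not tested. By rank, 3 within-group relations with the summed lists passed after adjustment. In the 8 responders, Cnp was lower where the summed keratinocyte and hair follicle genes, which ran from 6.47 to 2381 CPM there, were higher (rho -0.98, r -0.95, exact permutation tests, adjusted p = 0.00693 and 0.00143). S100b gave rho -0.93 and r -0.71 with that sum (exact permutation tests, adjusted p = 0.0268 and 0.182), and r without the 2 tumours farthest from its median was -0.66, against -0.96 for Cnp. Responders 5 and 3, with sums of 6.47 and 8.15 CPM, had protein-coding shares of 87.0% and 74.3%. Responders 1 and 4, at 1983 and 1755 CPM, had shares of 23.8% and 54.2%, but responder 2, at 2381 CPM, had 72.7%. The part of this share in these relations was not tested. In the 6 stable tumours, Mbp was higher where the summed fibroblast genes were higher (rho 1.00, r 0.93, exact permutation tests, adjusted p = 0.0314 and 0.0148, and r 0.90 without 2 tumours). By Pearson's r alone, a further 3 relations passed: Mbp with T cell genes in responders (r 0.88, adjusted p = 0.0203, exact permutation test), Gfap with fibroblast genes in stable tumours (-0.95, adjusted p = 0.04, exact) and S100b with dendritic cell genes in non-responders (-0.96, adjusted p = 0.0281, exact). The part of these cells in the results was not tested. Of 12 genes of the EGR partner and immediate early list, 2 were higher in responders and 3 in stable tumours than in non-responders, with Junb in both (0.73 and 0.94). Over all genes 25.2% and 7.08% were higher in these 2 comparisons. Egr2 itself was called in neither.

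Between groups, pigment genes moved with S100b and Cnp. Of 17 melanocyte genes, 16 were lower in responders and 15 in stable tumours than in non-responders, with 0 higher, where 23.8% and 7.86% of all genes were lower. Among non-responders the tumours 1, 2 and 3, with Tyr at 301, 461 and 611 CPM, held 66.6, 79.4 and 105 CPM of S100b. Non-responders 4, 5 and 6, with Tyr at 26.7, 11.4 and 18.8 CPM, held 46.4, 36.5 and 51.1 CPM. Mag ran the other way among them, at 3.00, 0.691 and 1.25 CPM against 3.23, 3.20 and 4.12 CPM, though non-responder 1 lay close to the second set. So did Egr2, at 19.1, 24.95 and 13.4 CPM against 34.6, 51.3 and 45.7 CPM. Cnp did not divide by this split, at 59.4, 56.7 and 58.5 CPM against 62.6, 45.0 and 47.3 CPM. Its highest value among non-responders was in non-responder 4, where Tyr was low. Of 12 endothelial genes, 11 were lower and 0 higher in responders than in non-responders. Of 12 skeletal muscle genes, 3 were lower and 0 higher, a share near the 23.8% of all genes called lower there. The part of pigment cells or vessels in the S100b and Cnp results was not tested.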

How the data were processed

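RNA of 25 tumours was sequenced; the protocols name a kit for total RNA that keeps the strand, per the labels' protocols, whereas the molecule field says polyA RNA. Per the submitters' processing notes, bcl2fastq 2.17, Trimmomatic, STAR 2.5.1 and RSEM 1.2.22 were used with mm10. The authors deposited estimated counts for 55450 genes, made with RSEM per the submitters' processing notes, and 5.64% of these values were not whole. The authors also deposited RPKM values; for these, gene lengths and totals were not given in the sources used here. All gene IDs matched GENCODE M21 (GRCm38), which gave symbols and positions.

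Counts were rounded, filtered by group (filterByExpr, 18031 genes kept), TMM-scaled and fitted with edgeR 4.0.16 (quasi-likelihood, 4 group means, R 4.3.3), with Benjamini-Hochberg adjustment over all genes tested and a threshold of 0.05. The script was tested on simulated data. Log2 CPM used a prior count of 2. Correlations used 100000 resamples or exact permutations. Alternatives were DESeq2 1.42.0, other scalings and filters, a protein-coding share covariate and limma 3.58.1 on log2(RPKM + 1) and log2(RPKM + 0.1). The 8 genes, the comparison lists and Sox10 were chosen with earlier results of these data known. Genes named from a list were up to 3 with the largest called changes in each direction at a mean of at least 1 CPM, in responders or stable tumours against non-responders, and others, such as Erbb3, Cdh19 and Ngfr, illustrate levels and were named after their values were seen. Neighbours were the 3 genes with the highest Spearman rho to each of the 8. Some genes of these lists are not reported here. Each tumour came from its own mouse. Promoter windows came from RefSeq (GRCm38.p6); 7 of the 8 genes had a window that was used.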

Additional observations from a re-analysis of the deposited data

Results flagged for a closer look

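In 40 sets of values, formed by 10 genes in each of the 4 groups, 2 single tumours lay far from the others of their group by Dixon's test, where chance gives about 1 in 20. Mag in control 5 was 1.55 CPM, while the other 4 controls held 0.329 to 0.626 CPM. Sox10 in responder 3 was 314 CPM, while the other 7 responders held 128 to 202 CPM. Responder 3 also held the highest Pmp22 (134 CPM) and Gfap (3.86 CPM) of the responders and the lowest Mag (2.41 CPM).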

How the results depend on the processing

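Over 36 alternatives, 1667 of 1722 log2 fold changes of the 8 genes kept their direction and side of the threshold, 30 lost a call, 25 gained one, and none called in either fit changed sign. The counts of 3, 3, 5 and 7 called genes in responders against non-responders and in each anti-CTLA-4 group against controls stayed within 1.5 times. In stable tumours against non-responders the count was 2, but 1 without a low-count filter, 4 with limma on log2(RPKM + 1) with or without an RPKM filter, and 1 to 4 when tumours were left out one at a time. In responders against stable tumours it was 2, but 0 when the protein-coding share entered the fit (as over all genes, where 0 were called), 0 without responders 1 and 4 (chosen after seeing the data), 1 with only the groups compared, 1 with protein-coding genes only, 1 in each of the limma fits and 1 to 5 when tumours were left out one at a time. The causes were not tested. Calls of S100b and Cnp in responders against non-responders held in every alternative run, with adjusted p of at most 0.0198 and 0.0304. Depth limits Mag and Gfap most, with as few as 10 and 7 counts in a library, and responder 1 gave only 20 counts of Mag and 78 of Cnp. No paired analysis was possible because the labels give each tumour its own animal number and share none between groups.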
